A study of Homo sapiens with 19 samples.

Results

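The genes of translation initiation factors (EIF) and translation elongation factors (EEF1 and EEF2) were followed through every RNA table of SH-SY5Y, a human neuroblastoma line. The cells were untreated, stressed with arsenite or given an siRNA. Members were the protein-coding rows whose Gene ID has a GENCODE name that begins with EIF and a digit, or with EEF1 or EEF2. They numbered 71 of 19942 rows in the TPM and eCLIP tables, and their transcripts numbered 872 of 256980 in the rRNA-depleted table. EIF1AY is Y-linked and is counted without a level, so that values are given for 70 genes and 867 transcripts. The rule goes by name, and so it also takes kinases, lysine methyltransferases and read-through genes that are not translation factors themselves.

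Sodium arsenite (AS) causes oxidative stress and makes cells assemble stress granules (SGs), bodies of stalled mRNAs and proteins held together by the RNA-binding proteins G3BP1 and G3BP2. Total was RNA of the cleared lysate of AS-treated cells, and SG was RNA of the granule cores pulled out of such lysate with an antibody to G3BP1. siCtrl, siG3BP1 and siG3BP2 were poly-A RNA-seq libraries of cells given a control siRNA or an siRNA against G3BP1 or G3BP2. The labels name poly-A RNA-seq for SG and Total too. Ribosomal RNA was depleted for a further pair of RNA-seq libraries, from cells without and with AS. eCLIP, which recovers RNA crosslinked to a protein, was done for G3BP1 and for G3BP2 in both conditions. eCLIP had 2 libraries per group. Each RNA-seq group was 1 library, so its comparisons have no replicate check and carry no p-value. The labels give 500 μM AS for 1 h to the rRNA-depleted AS sample. They give 50 mM for 1 h to all knockdown, Total, SG and eCLIP samples, untreated ones included. The study's methods give 500 μM for 1 h as the only AS dose, and mention no AS for the knockdowns. The 4 size-matched input libraries were not analysed here.

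The SH-SY5Y markers PHOX2A, HAND2, GATA3, ISL1 and DBH lay between 105 and 874 TPM in siCtrl. PTPRC, ALB, KRT5, PECAM1 and GFAP, markers of blood, liver, basal epithelium, endothelium and astrocytes, were listed at 0 there, and the fibroblast collagen COL1A1 was at 12.6 TPM. The targeted genes followed the labels: G3BP1 was at 18.7 TPM in siCtrl, 6.0 in siG3BP1 and 16.5 in siG3BP2, and G3BP2 was at 38.1, 39.4 and 11.4 TPM. TPM values keep no depth. The rRNA-depleted values correspond to 13291958 reads (untreated) and 11281587 reads (AS), and the eCLIP libraries hold between 4268911 and 26179736 in sum.

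To start translation, eIF2 brings the initiator tRNA to the small ribosomal subunit, which eIF3 holds, while eIF4E, eIF4G and eIF4A bind the mRNA cap and open the leader. Under stress, kinases phosphorylate eIF2 and block its recharging by eIF2B, initiation stalls, and the stalled complexes gather in SGs. After the start, eEF1A delivers aminoacyl-tRNA, the eEF1B subunits recharge it, and eEF2 moves the ribosome along. Many mRNAs of the translation machinery begin with a run of C and T bases at the cap, the terminal oligopyrimidine (TOP) motif, through which their own translation is controlled.

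The question for SG against Total was which mRNAs were carried into the SG cores. An mRNA was called SG-enriched when the ratio of TPM + 1 was above 2 and SG was above 1 TPM, and SG-depleted when the ratio was below 0.5 and Total was above 1 TPM. Of the 70 members, 20 (28.6%) were SG-enriched and 18 (25.7%) were SG-depleted, where the same rule called 42.8% and 6.43% of all 19942 genes. The median log2 ratio was -0.11 over the members and 0.60 over all genes. At 1 TPM or more in either library were 69 of the 70 members, but only 13560 of the 19942 genes. Of these 13560 genes 62.9% were enriched and 9.45% depleted, with a median of 1.51. Among 10958 genes above 1 TPM in Total and in SG the median TPM ratio was 2.78, and with that ratio set to 1 the split was 10 members higher and 40 lower, beside 22.6% and 16.4% of all genes. In the level of an mRNA in these bulk libraries, fewer cells with it and less of it per cell cannot be told apart. Nor can the ratio tell fewer cells that carried it into SG cores from less carried per cell. The members together made up 2.25% of the protein-coding TPM in Total and 1.30% in SG, against 1.99% to 2.11% in the 3 siRNA libraries.

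**Figure D1:**
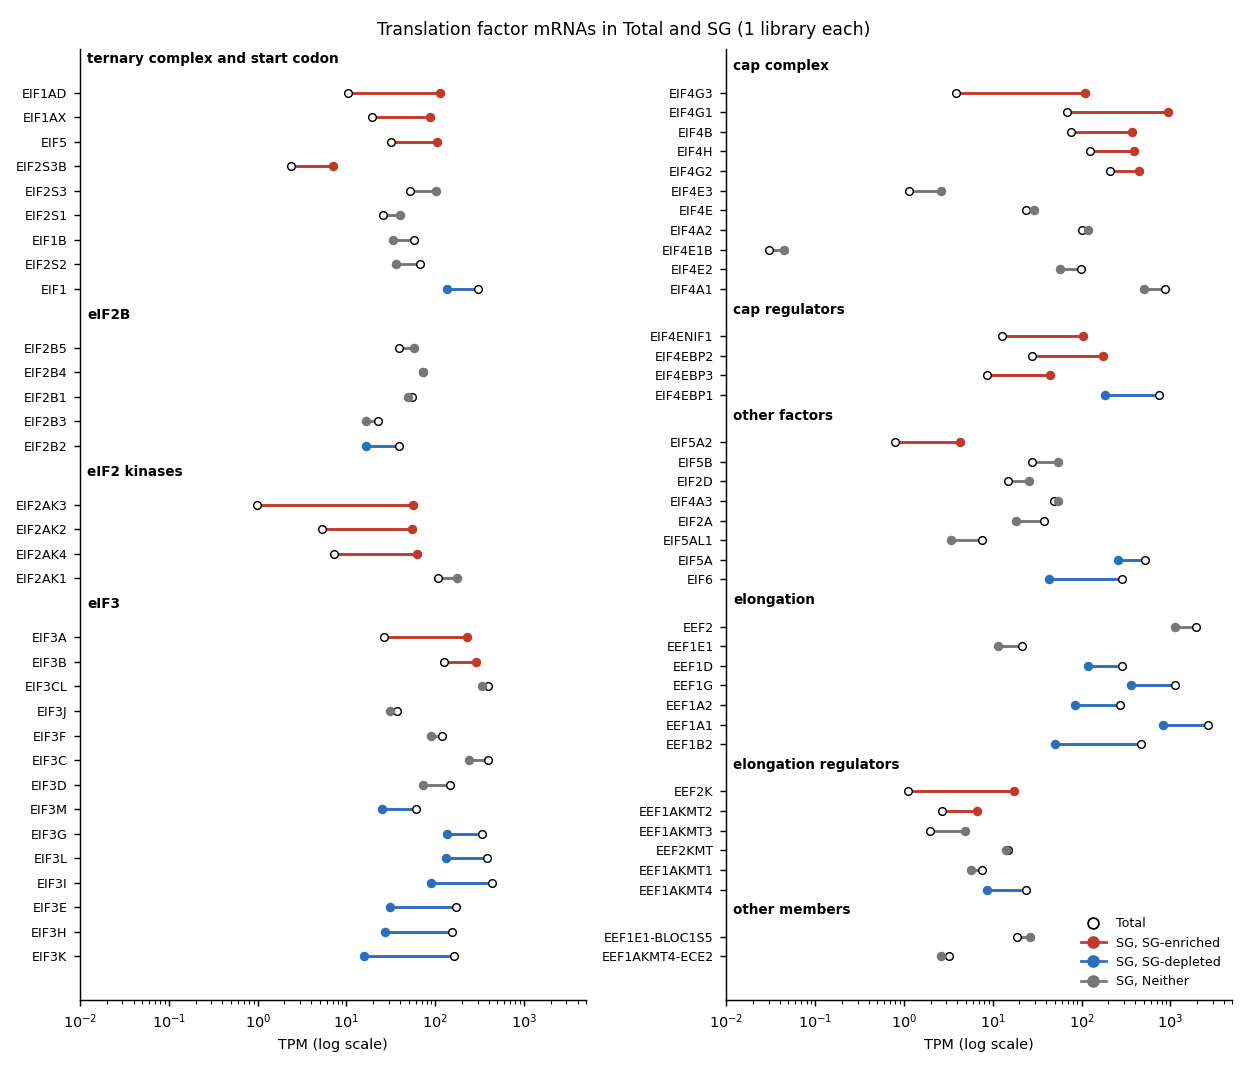
TPM of each member in Total (open circles) and SG (filled circles) on a log axis, grouped by role and coloured by SG class, with 1 library per point pair. All elongation factors have their SG point left of Total. Of the 4 eIF2 kinases, each over 4000 nt long, 3 are SG-enriched, beside 91.2% of genes of that length at 1 TPM or more.

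The elongation factors were the group that lay lowest in SG. Of 7 members 5 were SG-depleted and none was enriched, and the 7 log2 ratios ran from -3.16 to -0.80. With the median of all genes set to 1, all 7 passed as lower. EEF1A1, the main carrier of aminoacyl-tRNA, went from 2650 TPM in Total to 822 in SG. EEF1B2, a subunit of its exchange factor, went from 464 to 50.9 TPM (log2 -3.16). The other subunits EEF1G and EEF1D were at 1130 and 289 TPM in Total, against 360 and 119 TPM in SG. EEF1A2, the isoform of neurons and muscle, went from 274 to 84.9 TPM. EEF2, the translocase, was at 1970 and 1130 TPM and EEF1E1 at 21.3 and 11.5 TPM, both short of the threshold. Summed, the elongation factors were 48.4% of the members' TPM in Total and 27.0% in SG.

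Of the 6 genes that modify the elongation factors 2 were SG-enriched and 1 was depleted, or 1 and 3 with the median of all genes set to 1. EEF2K, the kinase that inactivates eEF2, rose from 1.12 to 17.2 TPM, and EEF1AKMT2 was at 2.67 and 6.69 TPM. EEF1AKMT4, like EEF1AKMT2 a lysine methyltransferase of eEF1A, was SG-depleted (24.0 and 8.62 TPM). The other 3 were called neither way. EEF1AKMT4 shares exons with the read-through gene EEF1AKMT4-ECE2, and EEF1E1 with EEF1E1-BLOC1S5, so their reads may be split.

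The eIF3 complex was split among its own subunits. Of 14 members 7 were SG-depleted and 2 SG-enriched, with a median log2 ratio of -1.11. With the median of all genes set to 1 the counts were 12 and 1. EIF3K had the lowest ratio of all members, with 163 TPM in Total and 15.8 in SG (log2 -3.29). It was followed within the complex by EIF3H (155 and 26.9 TPM), EIF3E (169 and 31.1 TPM) and EIF3I (441 and 89.7 TPM). EIF3L, EIF3G and EIF3M were depleted as well, with log2 ratios of -1.52, -1.30 and -1.23. In contrast EIF3A, the largest subunit and scaffold of the complex, rose from 26.2 to 225 TPM (log2 3.06), and EIF3B, another core subunit, from 127 to 286 TPM (log2 1.17). EIF3B lay below the median of all genes once that was set to 1 (log2 -0.29). EIF3C and its copy EIF3CL, 99.9% identical in coding sequence, were at 395 and 393 TPM in Total and 239 and 338 TPM in SG, and reads of either can be counted for the other.

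Of the 11 cap complex members 5 (45.5%) were SG-enriched and none was depleted. The share enriched was 42.8% over all genes and 62.9% over those at 1 TPM or more. With the median of all genes set to 1 the counts were 2 higher and 4 lower. EIF4G1, the scaffold between the cap and eIF3, rose from 68.6 TPM in Total to 934 TPM in SG (log2 3.75). Its paralog EIF4G3 rose from 3.83 to 109 TPM (log2 4.52), and the divergent family member EIF4G2 from 211 to 445 TPM (log2 1.07, or -0.39 with the median of all genes set to 1). EIF4B and EIF4H, which both aid the eIF4A helicase, went from 75.3 to 366 TPM and from 126 to 388 TPM. The helicase mRNAs themselves were called neither way, at 878 and 510 TPM for EIF4A1 and 101 and 118 TPM for EIF4A2, and so was the cap-binding EIF4E at 23.4 and 29.3 TPM. With 11.3% of the members' TPM in Total, the cap complex held 31.0% in SG.

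All 4 regulators of the cap complex passed the rule, and with the median of all genes set to 1 there were 2 higher and 1 lower, EIF4EBP3 (log2 2.23, then 0.81) no longer passing. EIF4EBP1, which binds eIF4E and keeps it from eIF4G, was SG-depleted at 750 TPM in Total and 186 in SG. The related EIF4EBP2 was enriched at 27.6 and 175 TPM (log2 2.62), and so was EIF4EBP3 at 8.71 and 44.6 TPM. EIF4EBP3 overlaps the read-through gene ANKHD1-EIF4EBP3 on the same strand. EIF4ENIF1, which carries eIF4E between nucleus and cytoplasm, was enriched at 12.6 and 104 TPM (log2 2.95).

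Among the eIF2 kinases, which start the stress response, 3 of 4 were SG-enriched, and the same number with the median of all genes set to 1. The canonical transcripts of the 4 are 4411 to 9975 nt long. Of all genes over 4000 nt at 1 TPM or more, 91.2% were enriched. EIF2AK3, the kinase of endoplasmic reticulum stress known as PERK, had the highest ratio of all members, with 0.993 TPM in Total and 56.1 in SG (log2 4.84). This rank rests on a low Total value, and with a pseudocount of 5 EIF2AK3 (log2 3.35) lay below EIF4G3 (3.70) and EIF4G1 (3.67). EIF2AK2, the kinase that senses double-stranded RNA, was at 5.33 and 54.5 TPM, and EIF2AK4, which senses amino acid shortage, at 7.22 and 62.1 TPM. EIF2AK1, the kinase that responds to arsenite, was far more abundant in Total at 108 TPM and was called neither way at 177 TPM in SG. Their shared substrate EIF2S1 was at 25.8 and 39.9 TPM.

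Of the 9 members of the ternary complex and start codon group, 4 (44.4%) were SG-enriched and 1 was depleted. With the median of all genes set to 1 the counts were 1 and 3. Over all genes at 1 TPM or more, 62.9% were enriched. EIF1AX and EIF5, which act in start codon selection, went from 19.2 to 88.2 TPM and from 31.7 to 104 TPM, and EIF1AD, grouped here by its name and similarity to eIF1A, from 10.5 to 112 TPM (log2 3.29). EIF2S3B, 98.2% identical in coding sequence to EIF2S3, was at 2.38 and 7.05 TPM and is uncertain for that reason. EIF1, which guards start codon choice, was depleted at 299 and 136 TPM. The eIF2B exchange factor had 1 SG-depleted subunit, EIF2B2 (39.0 and 16.4 TPM), and 4 with the median of all genes set to 1, while its other 4 subunits lay between log2 -0.42 and 0.54.

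Among the 8 remaining factors EIF6, which keeps the ribosomal subunits apart, fell from 288 TPM in Total to 43.2 in SG (log2 -2.71). EIF5A, which helps ribosomes past difficult peptide bonds, went from 513 to 255 TPM and just passed the threshold. EIF5A2 was at 0.798 and 4.26 TPM (log2 1.55). The remaining 5, EIF5AL1, EIF2A, EIF4A3, EIF2D and EIF5B, were called neither way. EIF5AL1 is 98.9% identical to EIF5A in coding sequence, and reads of either can be counted for the other.

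Some paralogs differed widely in their ratios and others little. For EIF4EBP1 and EIF4EBP2, 65.4% identical in coding sequence, the log2 ratios differed by 4.62, and their canonical transcripts are 827 and 7491 nt long. For EIF5A and EIF5A2, 71.6% identical, the difference was 2.56, with transcripts of 1264 and 5534 nt. EEF1A1 and EEF1A2, 78.2% identical with canonical transcripts of 3512 and 1773 nt, differed by 0.01. Of these lengths, 2060 and 284 nt lie after the coding sequence. Whether the canonical transcripts of these pairs are the forms expressed was not tested. EIF4A2 lay above EIF4A1 by 1.00 and EIF4G3 above EIF4G1 by 0.77, while EIF4E2 lay below EIF4E by 1.08. EIF1B lay above EIF1 by 0.37.

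Transcript length moved with the ratio. Over the 69 members at 1 TPM or more in either library, Spearman's rho between the log2 SG to Total ratio and the length of the canonical transcript was 0.575, and over 13548 genes it was 0.696. These are correlations across genes of the same 2 libraries, which are not independent replicates. Between the ratio and the level in siCtrl, rho was -0.579 over the members and -0.425 over the 13548 genes. The 20 SG-enriched members had a median transcript length of 4475 nt and a median siCtrl level of 18.2 TPM, and the 18 depleted ones 1609.5 nt and 296 TPM. Beside genes of like canonical length, not matched on level, most members still lay low. Whether the canonical transcript is the form that these cells express was not tested, for members or for other genes. The median siCtrl level was 52.7 TPM over the members and 3.45 TPM over all genes. Of 21 members under 2000 nt 47.6% were SG-depleted, against 31.3% of all genes of that length. Of 30 members of 2000 to 4000 nt 26.7% were enriched, against 61.1%, and of 18 members over 4000 nt 61.1% were enriched, against 91.2%. When all genes were split into 20 bins by length, 51 of the 69 members lay below the median of their own bin.

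**Figure D2:**
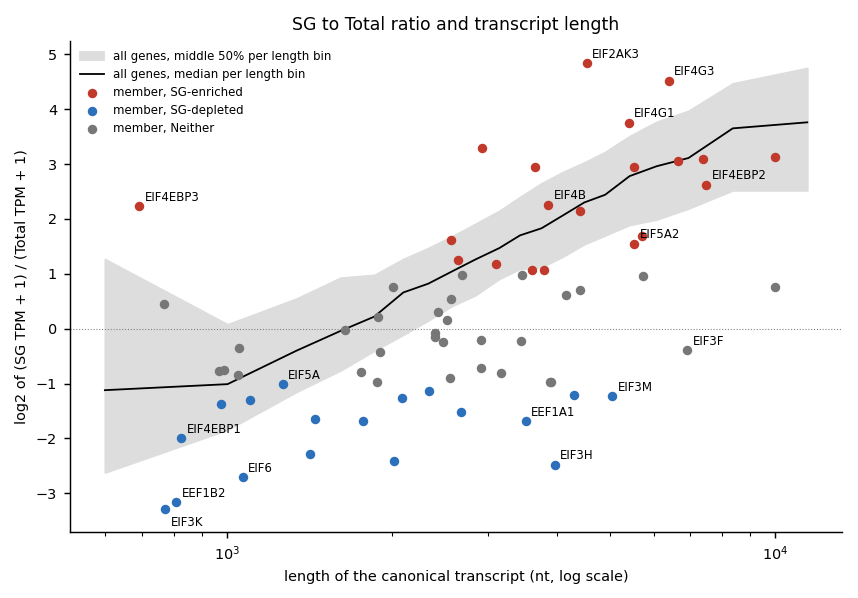
Log2 ratio of TPM + 1 in SG to Total against the length of the canonical transcript in nt (log axis) for 69 members (points, coloured by SG class), with the median (line) and middle 50% (grey band) of 20 length bins of all genes. The members follow the rise of the line, but 51 of 69 lie below it, EIF3H, EIF3F and EIF3M far below. Whether the canonical transcripts are the forms expressed was not tested.

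Because 6 of the 18 depleted members are known TOP mRNAs, the first bases of member transcripts are shown. Windows come from the RefSeq promoter table (GRCh38.p14) and run from 14 bases before to 16 bases from the annotated start. The start nearest to that of the canonical transcript was used, within 100 bases, which gave a window for 54 members. Capitals mark the unbroken run of C and T that begins at the start itself. The first 4 are members that were SG-depleted, then come 5 with the same kind of start that were not depleted, and the last 3 are the members with the highest log2 ratios.
EEF1A1, chr6:73521017-73521046, minus strand: tcgccgtgaacgttCTTTTTCgcaacgggt
EEF1B2, chr2:206159881-206159910, plus strand: cggtctcttcgggtCCTTTTTCCTCTCTTC
EIF3K, chr19:38619174-38619203, plus strand: tccgtttccaccacCTCTTCCTgttcccgt
EIF3M, chr11:32583817-32583846, plus strand: cgcggcccagttccCTTTTCCggtcggcgt
EEF2, chr19:3985448-3985477, minus strand: ttgacgtcagcgttCTCTTCCgccgtcgtc
EIF3F, chr11:7987323-7987352, plus strand: tccgcttccgcctcCTTCTTTCTCgacaag
EIF4A2, chr3:186783563-186783592, plus strand: ttgggcgccgctgtCTTTTCagtcgggcgc
EIF2S3, chrX:24054942-24054971, plus strand: gggtgatttccttcCTCTTTTggcaacatg
EIF4B, chr12:53006442-53006471, plus strand: tgcctcatccgggtCTTTTgcgttctcttt
EIF4G1, chr3:184314592-184314621, plus strand: ctgtgcggggagccggaaatggttgtggac
EIF4G3, chr1:21176882-21176911, minus strand: gaagttttccgagcagccgtcctgccggac
EIF2AK3, chr2:88627449-88627478, minus strand: gcgatgtccgagataggctgtcactcaggt

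A start was counted as TOP-like when it was a C followed by at least 4 bases that were each C or T, read on the gene's own strand only. This held for 13 of the 54 members (24.1%) and for 4.07% of the 35116 promoters in the table. These shares have unlike bases: each member was counted once, while the table lists every promoter of a gene, whatever its level. Of the 13 members, 4 were SG-depleted and 2 SG-enriched (EIF4B and EIF2S3B), with a median log2 ratio of -0.80. Of the 41 others, 7 were depleted and 17 enriched, with a median of 0.45. Over all 792 genes at 1 TPM or more with such a start at any of their promoters, 19.1% were SG-depleted and 53.3% enriched, beside 9.45% and 62.9% of the 13560 genes at that level. EIF6, EIF1 and EEF1G, all depleted, had no such start at the annotated base. Of 9 members listed as TOP mRNAs from general knowledge, 6 were depleted and EIF4B was enriched, with EEF2 and EIF3F called neither way. Of the 6 depleted ones, EEF1D, EIF3E and EIF3H had no window and so are not among the 54.

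The knockdowns asked which mRNA levels depend on G3BP1 or G3BP2. Higher meant a ratio of TPM + 1 above 2, lower a ratio below 0.5, each with the higher library above 1 TPM. In siG3BP1 against siCtrl no member was higher and 1 was lower, where the rule called 0.692% and 1.22% of all genes. In siG3BP2 against siCtrl no member was higher and 1 was lower, beside 0.752% and 1.77% of all genes. The share of members lower was 1.43% in each, close to that of all genes. Both comparisons share the siCtrl library. The member was EIF4E in each case, the cap-binding protein that limits initiation, at 16.4 TPM in siCtrl, 7.31 in siG3BP1 and 4.19 in siG3BP2. For siG3BP1, EIF4E passed by a narrow margin (log2 -1.07) and no longer passed with a pseudocount of 5 or with the median of all genes set to 1. For siG3BP2 its log2 ratio was -1.75.

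Other members stayed within the thresholds. EIF4A1 was at 890 TPM in siCtrl, 537 in siG3BP1 and 852 in siG3BP2. EIF4G1 was at 175, 124 and 119 TPM. EIF3K was at 86.8, 83.2 and 162 TPM, a log2 ratio of 0.89 in siG3BP2, which passed the threshold with the median set to 1. The 70 members had a median log2 ratio of 0.00 in siG3BP1 and -0.05 in siG3BP2.

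**Figure D3:**
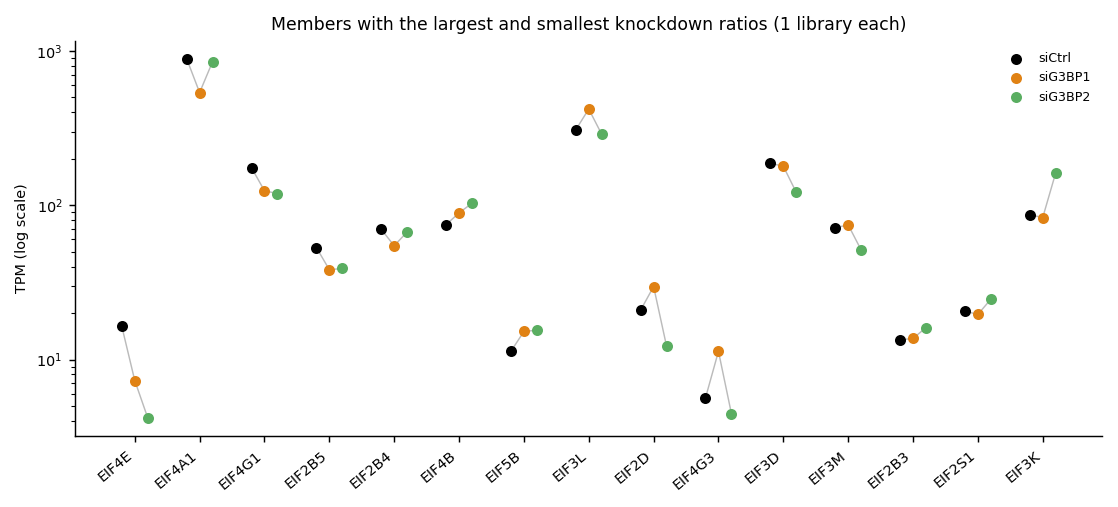
TPM (log axis) in siCtrl, siG3BP1 and siG3BP2, 1 library each, of the members with the 5 largest and 5 smallest ratios in either knockdown. EIF4E was lower in both knockdown libraries, whereas EIF4G3 and EIF2D were higher in siG3BP1 than in siG3BP2.

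The knockdown libraries differed from each other in 2 members. EIF2D, which can start and recycle ribosomes without eIF2, was at 20.9 TPM in siCtrl, 29.7 in siG3BP1 and 12.2 in siG3BP2 (log2 -1.21 for siG3BP2 against siG3BP1). EIF4G3 was at 5.64, 11.3 and 4.46 TPM (log2 -1.17). Both were lower in siG3BP2 and no member was higher, where 1.18% of all genes were lower and 0.852% higher.

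Total was also set beside siCtrl, libraries that differ in the siRNA, the clearing of the lysate and AS at once, so that these cannot be told apart. Of the members 2 were higher and 2 lower in Total, beside 0.782% and 12% of all genes, and the median gene had a ratio of 0.750. EIF5B, which joins the ribosomal subunits, was at 11.3 TPM in siCtrl and 27.4 in Total, and EIF3E at 76.7 and 169 TPM. EIF4G1 was at 175 and 68.6 TPM and EIF2AK3 at 5.69 and 0.993 TPM, so that the 2 members lower in Total were among the 3 most SG-enriched. With the median set to 1 there were 7 members higher and 1, EIF2AK3, lower, beside 2.23% and 6.6% of all genes. The Total level of each member enters its SG ratio too: against siCtrl, SG was higher for EIF4G1 (934 and 175 TPM) and for EIF2AK3 (56.1 and 5.69 TPM).

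The rRNA-depleted libraries asked how AS changed RNA levels in whole cells. Each value is per transcript, and a read is counted in every transcript of a gene that it overlaps, so transcripts of a gene are not independent. A transcript was called when its ratio was above 2 or below 0.5 with the higher library above 1 RPKM. Of the 867 member transcripts 27 (3.11%) were higher and 23 (2.65%) lower after AS, beside 2.68% and 0.790% of all transcripts. Above 1 RPKM were 765 of the 867, but only 100555 of all 256980 transcripts. On sums per gene, 3 members were higher (EEF1AKMT3, EIF3C, EIF5A2) and 2 lower (EEF1B2, EIF3CL), beside 2.64% and 1.06% of all genes. The canonical transcripts of the 65 members above 1 RPKM had a median AS to untreated ratio of 1.2, and those of 10349 genes one of 1.23.

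EEF1B2 stood apart. Its canonical transcript was at 29.9 RPKM in untreated cells and 5.05 RPKM after AS, from 321 and 46 reads, a ratio of 0.169 with an exact 95% interval of 0.121 to 0.231. Intervals here are Clopper-Pearson intervals on the reads and cover counting error only. Of the 23 lower member transcripts 9 were of EEF1B2 and 8 of EEF1D, the other exchange subunit, whose canonical transcript was at 3.27 and 1.77 RPKM. EEF1G, which anchors that complex, was at 197 and 223 RPKM and EEF1A1 at 374 and 433 RPKM, close to the median ratio. In the poly-A libraries EEF1B2 was at 369 TPM in siCtrl and 464 in Total. Small nucleolar RNA genes lie within EEF1B2 on the same strand.

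EIF3C and EIF3CL moved in opposite directions, with ratios of 2.69 (102 and 233 reads) and 0.436 (511 and 189 reads). The copies are nearly identical, and summed over both there were 613 and 422 reads, a ratio of 0.811. How reads were assigned between the copies was not tested. EIF3K was listed at 0 in both rRNA-depleted libraries on all its transcripts, although it had 86.8 TPM in siCtrl, so its listed 0 is not read as absence.

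Smaller differences of the other sign were seen for EIF5 (16.4 and 28.0 RPKM, ratio 1.71, interval 1.59 to 1.84) and EIF1AD (6.71 and 12.9 RPKM, ratio 1.92, interval 1.64 to 2.25). EIF4A2 went from 18.3 to 29.4 RPKM and EIF2AK3 from 1.84 to 2.87 RPKM, with intervals of the ratio from 1.42 to 1.81 and from 1.21 to 2.01. EEF1AKMT3, of low level, went from 1.04 to 2.80 RPKM on 37 and 85 reads. EIF4G1 stayed at 54.0 and 54.7 RPKM. Of the 61 members with an interval, 41 had it above 1, 2 below 1 and 18 on both sides, and since the ratio of all genes was above 1 as well, an interval above 1 does not set a member apart. Among the 27 higher transcripts were 7 of EIF3C. Annotated retained introns were higher in 8 of 238 member transcripts of that kind (3.36%), of which 212 were above 1 RPKM. Of all 31445 such transcripts 1125 were higher (3.58%), but only 18190 were above 1 RPKM, so these 2 percentages have unlike bases.

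**Figure D4:**
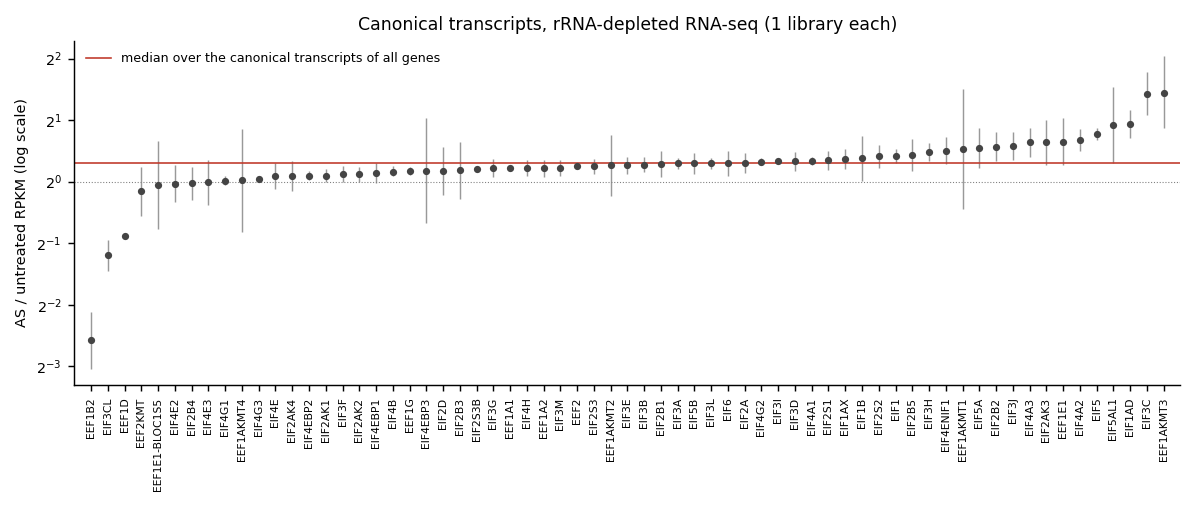
Ratio of AS to untreated RPKM (log axis) of the canonical transcript of 65 members, with exact 95% intervals for the 61 whose reads could be recovered, and the median over all genes (red line, 1.23). EEF1B2 and EIF3CL lie lowest, and EEF1AKMT3 and EIF3C highest.

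eCLIP asked which RNAs G3BP1 and G3BP2 touch. The deposited value per gene is log10 of a whole number plus 1, not scaled between libraries, and it was compared in ppm, the number scaled to a library sum of 1000000. Of the 70 members 64 had a value above 0 in both G3BP1 libraries of untreated cells and 64 in those of AS-treated cells, with 65 and 62 for G3BP2. Of all genes 89.1%, 86.4%, 91.9% and 90.4% did. EIF4E1B, listed at 0 TPM in siCtrl, siG3BP1 and siG3BP2, had an eCLIP mean of 13.5 ppm over the 8 libraries. A value above 0 is therefore not read here as contact with G3BP1 or G3BP2. The authors normalized their peaks against the size-matched input to take out background. Whether the deposited values include that step is not stated, and the share of background was not tested. The median member was at 6.38 to 9.25 ppm over the 8 libraries, and the median gene at 11.2 to 12 ppm. Per kb of gene the gap was smaller, with medians of 0.256 to 0.410 ppm for members and 0.389 to 0.416 ppm for all genes.

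The value followed the span of the gene. Over the members Pearson's r between the log10 value and log10 gene span was 0.644 to 0.765 in the 8 libraries, and with log10 of siCtrl TPM + 1 it was -0.395 to -0.235. These points share their library and are described only. In ppm, EIF4G3 (gene span 371.0 kb) and EIF3E were highest with means over the 8 libraries of 575 and 552, followed by EIF2AK2 and EIF3H at 131 each. Per kb of gene, EIF2B5, EIF2AK2 and EIF3E led with 2.88, 2.25 and 1.97 ppm. EEF1A1, the most abundant member mRNA in Total, was at 10.4 ppm and EEF2 at 0.484.

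After AS no member and no gene passed limma with Benjamini-Hochberg adjustment at 0.05, for G3BP1 (67 members tested, 0.0% of 18888 genes) or for G3BP2 (68 members, 0.0% of 19035 genes). At an unadjusted p below 0.05 there were 4 members for G3BP1, beside 2.86% of all genes, and 4 for G3BP2, beside 3.66%. For G3BP1, the log10 values of EIF6 were 1.46 and 1.18 without AS and 2.21 and 1.66 with it. For G3BP2, EIF6 was listed at 0 without AS in each library and at 2.28 and 2.06 with AS. Both AS libraries of each protein thus lay above both untreated ones for this gene (limma difference in ppm + 1 on the log2 scale 1.91 ± 0.447 SE and 3.52 ± 0.403 SE, adjusted p = 0.996 and 0.832). That order held for 10 members and 12.6% of all genes for G3BP1, and for 9 members and 14.1% of all genes for G3BP2.

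EIF3I showed the same order in ppm. Its log10 values were 2.31 and 1.76 without AS and 2.80 and 2.03 with it for G3BP1, and 2.22 and 2.0 against 2.72 and 2.62 for G3BP2. The limma differences were 1.53 ± 0.319 and 1.98 ± 0.517 (SE), both with an adjusted p = 0.996. EIF6 and EIF3I were both SG-depleted members. In the other direction EIF5A had 1.83 and 1.61 without AS and 1.34 and 0.00 with it for G3BP1, and EIF5 had 1.94 and 1.98 against 1.40 and 1.18 for G3BP2. The limma differences of EIF5A and EIF5 were -1.88 ± 0.518 and -1.48 ± 0.502 (SE), again with an adjusted p = 0.996.

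**Figure D5:**
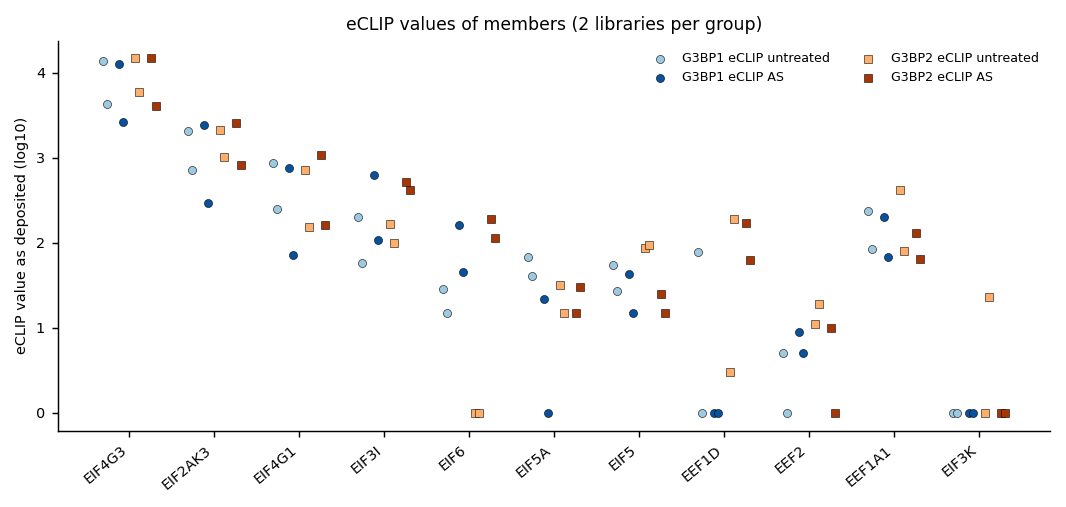
Deposited eCLIP values (log10 scale) of 11 members in the 8 libraries, as points by protein (circles G3BP1, squares G3BP2) and treatment (pale untreated, dark AS). EIF4G3 is high in all 8, and EIF3K is at 0 in 7 of the 8. EIF6 lies higher in both AS libraries of each protein than in the untreated ones (adjusted p = 0.996 and 0.832 by limma).

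Between the proteins, no member or gene passed after adjustment in untreated cells (0.0% of 19004 genes, with 2 members and 0.942% of genes at an unadjusted p below 0.05). The same held after AS (0.0% of 18934 genes, with 2 members and 0.724% unadjusted). EEF1D had log10 values of 0.00 and 0.00 for G3BP1 and 2.23 and 1.80 for G3BP2 after AS (limma difference 3.04 ± 0.349 SE, adjusted p = 0.998), but in untreated cells 1.89 and 0.00 against 0.48 and 2.28, where the libraries of a pair disagreed. For EIF4A3, of the exon junction complex, the values after AS were 1.92 and 1.04 for G3BP1 and 2.22 and 1.88 for G3BP2. EIF1AD was at 1.89 and 1.11 for G3BP1 and 2.08 and 2.06 for G3BP2 in untreated cells. EEF2K after AS was at 2.08 and 1.45 for G3BP1 and 1.94 and 0.85 for G3BP2.

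The test of whether the AS change differed between the proteins gave no call either (69 members, 0.0% of 19259 genes), with 3 members and 0.940% of genes at an unadjusted p below 0.05. These were EIF6, EEF2 and EIF5A, with differences of 1.61, -1.32 and 2.15 on the log2 scale.

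Other genes of translation were set beside the members from a fixed list. Of 21 genes of termination, recycling and regulation, 12 (57.1%) were SG-enriched and 4 depleted, and the median log2 ratio was 1.54. All 21 were at 1 TPM or more, and of all genes at that level 62.9% were enriched and 9.45% depleted, with a median of 1.51. LARP1, which binds TOP mRNAs, rose from 14.6 to 572 TPM, and PABPC1, the poly-A binding protein and itself a TOP mRNA, was at 536 and 1010 TPM. GCN1, the partner of EIF2AK4, was at 25.4 and 251 TPM. PPP1R15B, the phosphatase subunit that reverses eIF2 phosphorylation, was at 5.63 and 160 TPM, while DHPS, which modifies eIF5A, was depleted at 178 and 66.1 TPM. Of 9 mitochondrial translation factors, 3 (33.3%) were enriched and none depleted, with a median of 0.56.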

How the data were processed

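Members, role lists and pathway lists were chosen with earlier results of these data known. The authors aligned reads of the siRNA, Total and SG libraries to GRCh38.p13 with HISAT2 2.1.0 and deposited TPM from StringTie for protein-coding genes. The authors' rRNA-depleted values are headed TPM, but they behave as RPKM: value times transcript length is a whole multiple (within 0.01) of 1 constant per library. For eCLIP, the authors trimmed reads with fastp, aligned with STAR and called peaks with CLIPper. They then normalized the peaks against the size-matched input to take out background, and analysed peaks common to the duplicates. The deposited values are log10, and which steps they include is not stated. Gene names, lengths and spans came from GENCODE 44, another release than the authors' one; 19910 of 19942 rows and 91.1% of transcripts matched.

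Ratios used TPM + 1 (none added for RPKM). eCLIP numbers were recovered from log10, scaled to a library sum of 1000000 and fitted as log2(value + 1) with limma 3.58.1 (R 4.3.3, trend, Benjamini-Hochberg) over genes above 0 in at least 2 libraries. Nothing says that the duplicates were separate cultures, so p-values may measure technical spread only. Scripts ran in Python 3.11.15 and were tested on simulated data. Named members had, per comparison, the 5 largest or 5 smallest ratios at 10 TPM or more or passed the fold rule, were paralog pairs or eIF2 kinases, or had the 3 largest eCLIP values or 3 smallest p-values; EIF2S1 was added. Others named after their values were seen are those that show a group's spread. Alternatives covered pseudocounts, thresholds, minima, scaling and leaving out each eCLIP library.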

Additional observations from a re-analysis of the deposited data

Results flagged for a closer look

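EEF2, the elongation translocase, had eCLIP values that differed after AS in opposite directions between the proteins, with no call after adjustment. In ppm, the number scaled to a library sum of 1000000, both AS libraries of G3BP1 lay above both untreated ones (mean change 0.58 on the log2 scale), and both AS libraries of G3BP2 lay below both untreated ones (-0.73), a difference of -1.32. Its log10 values were 0.70 and 0.00 without AS and 0.95 and 0.70 with it for G3BP1, and 1.04 and 1.28 against 1.00 and 0.00 for G3BP2, so the numbers behind these values are small. Of all genes, 12.6% had both AS libraries above both untreated ones for G3BP1, and 14.9% had them below for G3BP2. By the limma interaction term the difference had an unadjusted p = 0.0357 and an adjusted p = 1.0.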

How the results depend on the processing

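Over single members and settings, 638 values kept direction and call, 47 lost the call, 19 gained it and 3 reversed. For SG against Total, thresholds of 4 and 0.25 left 13 members higher and 7 lower, thresholds of 1.5 and its inverse gave 28 lower, and setting the median of all genes to 1 gave 10 higher and 40 lower and turned EIF3B, EIF4G2 and EEF1AKMT2 to -0.29, -0.39 and -0.11. That scaling also ended the call of EIF4B (0.80), EIF1AX (0.70), EIF5 (0.24), EIF4H (0.15), EIF4EBP3 (0.81), EIF5A2 (0.50) and EIF2S3B (0.07), and a pseudocount of 5 that of EIF5A (-0.99), EIF5A2 (0.68), EIF2S3B (0.71) and EEF1AKMT2 (0.61). For siG3BP1, thresholds of 1.5 gave 1 higher and 2 lower, and 0 were lower with a pseudocount of 5, with thresholds of 4 or with the median set to 1. For siG3BP2, thresholds of 1.5 gave 2 higher and 3 lower, thresholds of 4 gave 0 lower, and the median set to 1 gave 1 higher. For siG3BP2 against siG3BP1, a pseudocount of 5 left 1 lower, without EIF4G3 (-0.79), thresholds of 4 left 0, and thresholds of 1.5 gave 2 higher. For Total against siCtrl a pseudocount of 5 gave 1 higher and 1 lower, thresholds of 4 gave 0 and 0, thresholds of 1.5 gave 7 and 8, a minimum of 10 TPM gave 1 lower, and the median set to 1 gave 7 and 1.

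For member transcripts in the rRNA-depleted libraries, higher and lower counts were 14 and 13 with a pseudocount of 1, 4 and 11 with thresholds of 4, 108 and 51 with thresholds of 1.5, 5 and 11 with a minimum of 10, 16 and 40 with equal column totals, and 15 and 43 with the median set to 1; with no minimum 37 were lower. On gene sums, thresholds of 4 gave 0 higher and 1 lower, thresholds of 1.5 gave 10 higher, and a minimum of 10 gave 1 higher. Taking the canonical transcript in place of the sum was chosen after seeing the data and kept the counts within 1.5 times. The cause of these shifts beyond the thresholds themselves was not tested.

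For eCLIP, log10 values as deposited gave 2 genes called for G3BP2 after AS, 1 of them EIF6 (log10 difference 2.17, adjusted p = 0.0103 by limma), whose adjusted p was 0.832 to 0.992 in all other fits that tested it and 0.896 with these values and a block. Leaving out 1 library at a time gave 0 to 3 genes called for G3BP1 after AS, the 3 without untreated replicate 2, and 0 in the other comparisons; no member was among them. Members with a value in both libraries changed by less than 1.5 times. A block for the replicate number left 0 genes called in all 5 fits, on scaled or deposited values. Differences between replicates correlated at 0.153 (G3BP1) and 0.088 (G3BP2) between untreated and AS-treated cells, and at 0.550 and 0.443 between the proteins; the labels name no shared batch, so the numbers were not taken as pairs. TPM keep no depth, and 1 library per group leaves differences near a threshold without an error.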
